A study of Mus musculus with 12 samples.

Results

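Sphingolipid metabolism was followed through 10 genes in sequenced RNA of mouse bone marrow neutrophils. They were Sphk1, Sphk2, S1pr4, Sgpl1, Sgpp1, Ugcg, Cerk, Sptlc1, Sptlc2 and Cers2, taken by symbol. All 10 were found among the 13935 rows of the table, and all 10 were among the 13915 rows kept after a filter on low values. The list was selected on earlier results of these libraries, which gave the level of Sphk1 with G-CSF in the 2 genotypes; whether values of the other 9 played a part is not recorded. Every Sphk1 value with G-CSF is therefore given as a description, with no test.

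Sphingolipids are built on a long-chain base made from serine and palmitoyl-CoA in the endoplasmic reticulum, which ceramide synthases join to a fatty acid to give ceramide. Ceramide is turned into sphingomyelin, glycosphingolipids or ceramide 1-phosphate, or is cleaved to sphingosine, which sphingosine kinases phosphorylate to sphingosine 1-phosphate (S1P). S1P is a lipid signal that acts on G protein-coupled receptors and is known for guiding leukocytes between tissues, blood and lymph, and it is removed by a lyase or by phosphatases.

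The cells were sorted from femur bone marrow by CD45, CD11b and Ly6G and cultured for 8 h, and the 12 libraries formed 4 groups of 3. The genotype called floxed was Socs3fl/fl, with loxP sites in the Socs3 alleles. Cells here called LysMcre-labelled came from mice with the same floxed alleles and the LysMcre allele. That allele carries a Cre recombinase under the lysozyme 2 (Lyz2) promoter, which acts in neutrophils, monocytes and macrophages. Each genotype was kept without cytokine or with mouse granulocyte colony-stimulating factor (G-CSF, 10 ng/ml), so the floxed alleles, sort and culture were common to all groups. G-CSF activates STAT3 in neutrophils, and SOCS3 is a feedback inhibitor of that signal. The labels give no age. They do not say either whether replicate libraries stem from different mice, and p-values then measure only the spread between libraries, which may be technical.

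Depth was 19495754 to 26472118 reads per library. All values are normalized counts, that is, reads divided by a size factor of the library, and 3 reads were worth 2.57 to 3.54 of them. All 8 neutrophil markers had a row and summed to between 1141000 and 1823000 normalized counts in every library, S100a8 and S100a9 making up most of the sum. With G-CSF 4 of the 8 rose and 3 fell in each genotype. Of all genes 24.1% rose and 24.6% fell in floxed libraries, and 31.1% rose and 31.6% fell in LysMcre-labelled libraries. Among the markers that fell was Retnlg, from 155900 to 62860 in floxed and from 146200 to 17220 in LysMcre-labelled libraries. Socs3 was not lower in the LysMcre-labelled libraries (292.4 ± 34.5 against 224.6 ± 23.1 without G-CSF and 37340 ± 1220 against 19500 ± 1630 with it, SD, n = 3). The counts thus do not show the deletion that the label names. Gene-level counts cannot tell a full Socs3 transcript from one without the floxed part. Lyz2, whose promoter drives the Cre, was lower in the LysMcre-labelled libraries. It stood at 6053 ± 493 against 222600 ± 3240 without G-CSF and at 569.3 ± 64.8 against 46230 ± 2460 with it (SD, n = 3). Every comparison between genotypes is thus also one between libraries that differ in Lyz2 RNA. Tests are two-sided limma tests on log2(value + 1) over all 4 groups, adjusted by Benjamini-Hochberg over 13915 genes with a threshold of 0.05. Fold changes on that scale understate the change of low genes. Scaling all libraries to equal totals moved the median over all genes by over 0.1 in 3 comparisons: to -0.13 for genotype with G-CSF, -0.26 for G-CSF in LysMcre-labelled libraries and -0.18 for the interaction.

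Without G-CSF the 10 genes stood at similar levels in both genotypes. The 3 libraries of each genotype overlapped for each of the 10 genes. How many of all genes overlap in this way was not counted, so nothing is read from it. None of the 10 passed in limma, against 0.115% of all genes tested (0.0647% higher and 0.0503% lower). None had an unadjusted limma p under 0.05, against 465 of all 13915 genes tested, so 0 of 10 says little about these genes. On the recovered reads edgeR and DESeq2 called 0 of the 10 as well, against 13 and 28 of all genes. For the 9 genes other than Sphk1, the 95% intervals of the log2 difference between genotypes lay within -0.23 and 0.19. Sphk1 had too few reads for a narrow interval, which ran from -0.84 to 0.97.

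Sphk1 (ENSMUSG00000061878.15, mm10 chromosome 11, 116530925 to 116536674, plus strand) encodes the inducible, mostly cytoplasmic kinase that makes S1P. Its RNA was close to the detection limit without G-CSF and clearly present with it. Floxed libraries without G-CSF held 1.07, 6.00 and 6.59 normalized counts, from 1, 7 and 7 reads. LysMcre-labelled libraries without G-CSF held 3.16, 2.58 and 7.43, from 3, 3 and 8 reads. The untreated groups overlapped in part, with the lowest library among the floxed and the highest among the LysMcre-labelled ones. With G-CSF, floxed libraries held 66.1, 49.0 and 51.8 normalized counts. LysMcre-labelled libraries with G-CSF held 594.1, 606.2 and 648.5. Neither G-CSF group overlapped any other group, and the lowest LysMcre-labelled library stood far above the highest floxed one.

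From summed reads, Sphk1 with G-CSF was 11.2-fold higher in LysMcre-labelled than in floxed libraries (1632 against 172 reads, exact 95% interval 9.58 to 13.2). The rise with G-CSF was 11.6-fold in floxed libraries (interval 6.85 to 21.2) and 141-fold in LysMcre-labelled libraries (83.6 to 258). Without G-CSF the ratio between genotypes was 0.93 (0.41 to 2.06, from 14 and 15 reads). These intervals cover counting error only, not the spread between libraries. Those that involve G-CSF come from values on which the gene was selected, so they are a description and no test. Bulk RNA cannot tell a change per cell from a change in which cells were present. Endothelium and stroma, which also express Sphk1, had 6 of 6 markers in the table. Their sum was 1353 to 1578 normalized counts in LysMcre-labelled libraries with G-CSF, against 734.3 to 939.6 without G-CSF in both genotypes and 780.1 to 849.3 in floxed libraries with G-CSF. Pecam1, which neutrophils express too, made up most of that sum (1326 in LysMcre-labelled libraries with G-CSF). Between genotypes with G-CSF 2 of the 6 markers were higher in limma, where 17.1% of all genes were. They were Pecam1 (log2 0.92, limma adjusted p = 7.12e-08) and Col1a1 (36.6 to 81.1, log2 1.12, limma adjusted p = 0.00115). Col1a1 was at 155.1 and 137.4 in the untreated groups (floxed and LysMcre-labelled). Col1a2 stood at 18.9 and 3.68 without and 3.73 and 19.3 with G-CSF (floxed and LysMcre-labelled). Cdh5, Kdr and Cxcl12 stood between 14.6 and 39.2, and no marker of the list was at 0 in group mean. The part of these markers in the Sphk1 result was not tested.

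**Figure D1:**
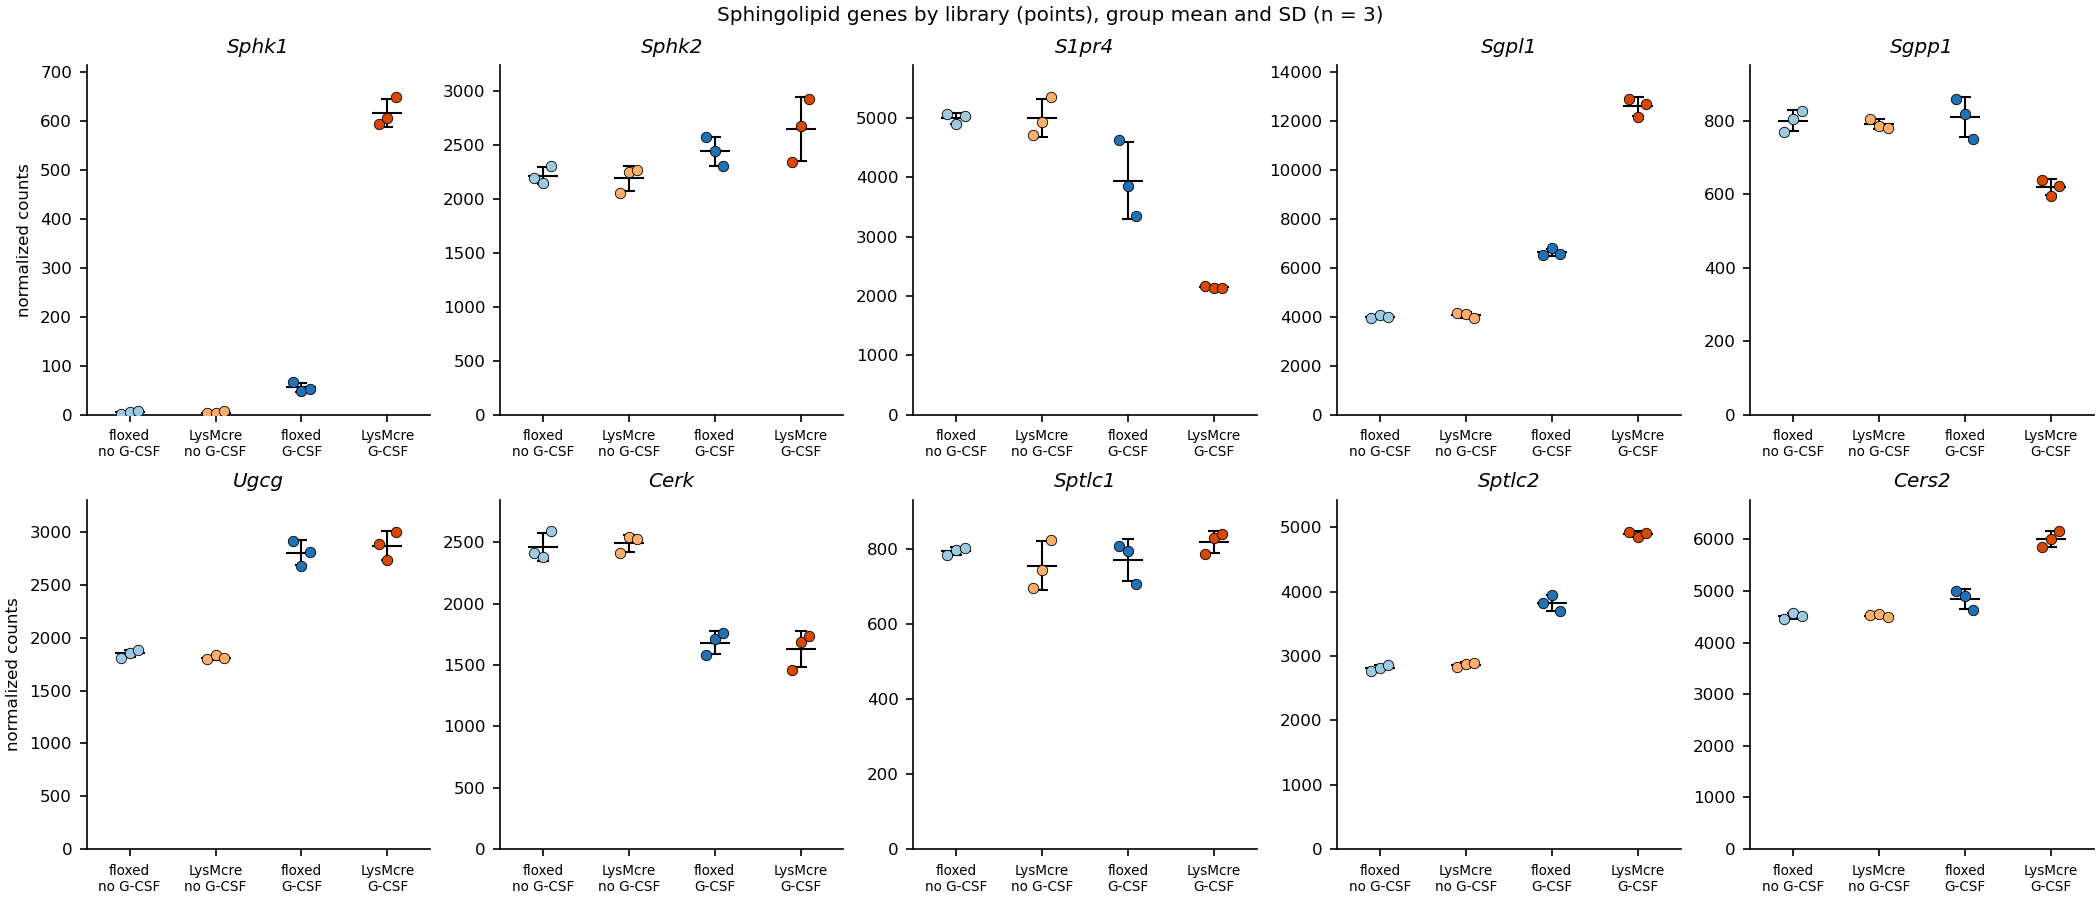
Normalized counts (vertical axes, from 0) of the 10 genes in each library, with 1 panel per gene, points for the 12 libraries, and bars for the group mean ± SD (n = 3). Sphk1 was near 0 in both untreated groups and reached 594.1 to 648.5 in LysMcre-labelled libraries with G-CSF, where S1pr4 fell to between 2132 and 2165 and Sgpl1 reached 12160 to 12910.

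The Sphk1 locus has several start sites in RefSeq, which give 5 promoter windows. The first window holds no match to the motifs searched, windows 2 and 3 overlap and share 1 STAT and 1 AP-1 match, and windows 4 and 5 overlap and share 1 E box. A window spans 250 bases before to 50 after a start site (RefSeq, GRCm38.p6), and 10 of 10 genes matched, with 16 windows. The stretch below is shown because Sphk1 changed most among the 10 genes. It is the 250 bases before the start of the fourth Sphk1 window, chr11:116532194-116532443, plus strand, 5′ to 3′, with an E box (CACGTG, its own reverse complement) in capitals at position -95, counting the start site base as 0.
Sphk1: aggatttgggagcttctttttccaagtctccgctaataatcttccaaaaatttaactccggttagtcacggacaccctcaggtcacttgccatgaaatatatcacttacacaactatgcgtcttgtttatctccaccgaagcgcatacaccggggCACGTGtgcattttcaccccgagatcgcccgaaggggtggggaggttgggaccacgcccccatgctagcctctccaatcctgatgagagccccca
A second, 30-base site at chr11:116531781-116531810, plus strand, lies within an exon that GENCODE M21 annotates for Sphk1 and before the start of the second window. It holds an AP-1 match (TGANTCA) at position -50 and a STAT palindrome (TTCNNNGAA) at -41 of that window, both in capitals.
Sphk1 site: tgtcgcTGAGTCAccTTCTCGGAAggcact
The STAT palindrome was found in 8.3% of all 32851 RefSeq windows of this length, the AP-1 letters in 7.81% and the E box in 7.15%, on either strand. These shares are per window, and a gene with 5 windows has more places for a match than a gene with 1. A match is a description of letters and not of a bound factor.

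Sphk2 (ENSMUSG00000057342.15, chromosome 7, 45709467 to 45718002, minus strand), the kinase of nucleus and mitochondria, had the higher count of the 2 sphingosine kinases in every group. Unstimulated levels were 2187, 2149 and 2301 normalized counts in floxed and 2051, 2246 and 2267 in LysMcre-labelled libraries. With G-CSF the values were 2571, 2443 and 2299 in floxed and 2336, 2673 and 2926 in LysMcre-labelled libraries. All groups lay close together. Of the 4 pairs of groups compared, the LysMcre-labelled libraries with and without G-CSF did not overlap and the other 3 pairs did. Sphk2 rose with G-CSF in LysMcre-labelled libraries by a log2 difference of 0.27 (SE 0.08, limma adjusted p = 0.00568). With equal totals the difference was 0.01 and the call was lost (adjusted p = 0.925). In floxed libraries the difference was 0.14 (95% interval -0.02 to 0.30, limma adjusted p = 0.145). Between genotypes with G-CSF it was 0.11 (interval -0.05 to 0.27, adjusted p = 0.271). Exons of Sphk2 share 539 bases with Dbp and 373 with Rpl18 on the opposite strand, and whether counting used the strand is not recorded in the labels. Its level is uncertain for that reason.

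Per kilobase of exon, Sphk1 made up 0.178% ± 0.117 of the Sphk1 and Sphk2 level in floxed and 0.173% ± 0.0983 in LysMcre-labelled libraries without G-CSF (SD, n = 3). With G-CSF the share was 1.94% ± 0.237 in floxed libraries. In LysMcre-labelled libraries with G-CSF it was 16.9% ± 1.05, with 18.1%, 16.5% and 16.2% in the single libraries. By these counts Sphk2 was the larger part in all 12 libraries, with the limit that reads of Dbp and Rpl18 may be counted in it.

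S1pr4 (ENSMUSG00000044199.6, chromosome 10, 81497747 to 81500132, minus strand) encodes the S1P receptor most typical of blood cells, and its RNA fell with G-CSF. The levels without G-CSF were 5065, 4890 and 5021 normalized counts in floxed and 4711, 4931 and 5348 in LysMcre-labelled libraries. With G-CSF, floxed libraries held 4625, 3846 and 3346. LysMcre-labelled libraries with G-CSF held 2165, 2136 and 2132. The untreated groups overlapped, each G-CSF group lay below both of them, and the LysMcre-labelled G-CSF group lay below all others with hardly any spread. S1pr4 fell by 0.35 on the log2 scale in floxed libraries (SE 0.09, limma adjusted p = 0.00323). It fell by 1.22 in LysMcre-labelled libraries (SE 0.09, limma adjusted p = 6.84e-09). Between genotypes with G-CSF the difference was -0.86 (SE 0.09, limma adjusted p = 1.69e-06), or 1.82-fold lower. The genotype by G-CSF interaction, which asks whether the responses differ, was -0.86 (SE 0.12, limma adjusted p = 0.000121).

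Lymphocytes also express S1pr4. Of the T and NK cell markers 5 of 6 had a row, and they summed to 322.9 to 360.2 normalized counts in floxed and 384.9 to 440.1 in untreated LysMcre-labelled libraries. With G-CSF the sums were 138.7 to 191.7 and 114.9 to 143.9, most of the change being in Cd3d, while Cd3e, Cd3g and Trac stood between 7.28 and 21.0 in every group mean. All 6 B cell markers had a row, with sums of 3258 to 5327 and 3517 to 4718 without G-CSF and 3235 to 4194 and 2943 to 3755 with it. No marker of either list was at 0 in group mean. Their part in the S1pr4 result was not tested.

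The 250 bases before the S1pr4 start, chr10:81500138-81500387 on the minus strand, are shown as those of a gene that fell. None of the 6 motifs searched had a match in its window, so no letters are in capitals.
S1pr4: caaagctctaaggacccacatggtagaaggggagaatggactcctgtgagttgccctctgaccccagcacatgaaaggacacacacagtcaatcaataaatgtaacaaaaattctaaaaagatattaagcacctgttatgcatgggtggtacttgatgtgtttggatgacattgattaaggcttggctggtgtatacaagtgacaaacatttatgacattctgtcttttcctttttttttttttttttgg
The other motifs searched, on both strands, were kappaB (GGGAANTTC, in 1.08% of all windows), C/EBP (TTGCNNAAT, 2.4%) and Sp1 (GGGCGG, 35.7%). The single window of Sgpp1 had no match either. Cerk, which fell too, had an Sp1 match at position 18 of its window. Sptlc1, which passed in no comparison, had an Sp1 match at -105. The windows of Sphk2 and Ugcg held Sp1 matches as well.

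Sgpl1 (ENSMUSG00000020097.14, chromosome 10, 61098642 to 61147703, minus strand) encodes S1P lyase, which cleaves S1P irreversibly and so ends the sphingolipid pathway. Its RNA rose with G-CSF in both genotypes and more in the LysMcre-labelled libraries. Floxed libraries held 3935, 4062 and 3975 normalized counts without G-CSF and 6543, 6800 and 6546 with it. LysMcre-labelled libraries held 4160, 4100 and 3931 without G-CSF and 12910, 12160 and 12710 with it. The untreated groups overlapped, and the 2 G-CSF groups overlapped neither each other nor the untreated groups. The rise was 1.66-fold in floxed libraries (log2 0.73, SE 0.05, limma adjusted p = 3.85e-09). In LysMcre-labelled libraries it was 3.10-fold (log2 1.63, SE 0.05, limma adjusted p = 1.47e-13). With G-CSF the genotypes differed 1.90-fold (log2 0.93, SE 0.05, limma adjusted p = 1.66e-09), and the interaction was 0.90 (SE 0.07, limma adjusted p = 2.89e-07). The 231 bases before its annotated gene start, chr10:61147704-61147934 on the minus strand, hold 2 of the 4 Sp1 matches of its window (capitals), and no other motif was matched.
Sgpl1: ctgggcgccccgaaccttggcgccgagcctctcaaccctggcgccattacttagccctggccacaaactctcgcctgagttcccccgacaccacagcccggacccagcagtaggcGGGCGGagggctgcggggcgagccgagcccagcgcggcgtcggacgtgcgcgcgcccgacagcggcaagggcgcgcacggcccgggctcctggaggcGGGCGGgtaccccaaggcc

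Sgpp1 (ENSMUSG00000021054.6, chromosome 12, 75714249 to 75735729, minus strand) encodes an S1P phosphatase, which returns S1P to sphingosine. It stood at 769.5, 805.2 and 828.2 normalized counts in floxed libraries without G-CSF and at 860.2, 819.5 and 751.3 with it. LysMcre-labelled libraries held 805.6, 787.4 and 780.8 without G-CSF and 640.3, 596.8 and 621.6 with it. The LysMcre-labelled G-CSF group was the low one, below all 9 other libraries, and the other 3 groups overlapped. Sgpp1 fell with G-CSF by 0.35 on the log2 scale in LysMcre-labelled libraries (SE 0.06, limma adjusted p = 0.000162). In floxed libraries the difference was 0.02 (95% interval -0.12 to 0.15, limma adjusted p = 0.866). The difference between genotypes with G-CSF was -0.39 (SE 0.06, adjusted p = 0.000197) and the interaction -0.37 (SE 0.09, limma adjusted p = 0.0076). The 2 S1P-removing enzymes thus moved in opposite directions in the LysMcre-labelled libraries, Sgpl1 up and Sgpp1 down.

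The first step of the pathway is made by serine palmitoyltransferase, whose core holds SPTLC1 and SPTLC2. Sptlc1 (ENSMUSG00000021468.8, chromosome 13, 53332748 to 53377397, minus strand), the subunit without the catalytic lysine, passed in no comparison. It stood at 784.4, 797.5 and 802.8 normalized counts in floxed and 697.3, 744.4 and 825.4 in untreated LysMcre-labelled libraries. With G-CSF the values were 809.2, 795.9 and 707.1 in floxed and 785.9, 829.1 and 840.6 in LysMcre-labelled libraries. All 4 groups overlapped. Its log2 differences with G-CSF were -0.05 in floxed libraries (95% interval -0.20 to 0.11, limma adjusted p = 0.626) and 0.12 in LysMcre-labelled libraries (-0.04 to 0.27, 0.17).

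Sptlc2 (ENSMUSG00000021036.10, chromosome 12, 87305058 to 87388355, minus strand), the catalytic subunit, rose with G-CSF in both genotypes. Floxed libraries held 2773, 2820 and 2863 normalized counts without G-CSF and 3826, 3948 and 3700 with it. LysMcre-labelled libraries held 2830, 2873 and 2896 without G-CSF and 4928, 4844 and 4910 with it. The untreated groups overlapped, and the G-CSF groups were separate from them and from each other. The rise was 1.36-fold in floxed (log2 0.44, SE 0.04, limma adjusted p = 7.04e-07) and 1.71-fold in LysMcre-labelled libraries (limma adjusted p = 4.98e-10, log2 0.77 with SE 0.04). With G-CSF the genotypes differed by 0.36 (SE 0.04, limma adjusted p = 1.41e-05). The interaction was 0.33 (SE 0.06, limma adjusted p = 0.00121), and with equal totals it was 0.16 and no longer passed (adjusted p = 0.0581). The 250 bases before its start, chr12:87388356-87388605 on the minus strand, are shown beside Sgpl1 because both genes rose in the same 2 comparisons. They hold 2 of the 3 Sp1 matches of the window, as the reverse complement CCGCCC, in capitals.
Sptlc2: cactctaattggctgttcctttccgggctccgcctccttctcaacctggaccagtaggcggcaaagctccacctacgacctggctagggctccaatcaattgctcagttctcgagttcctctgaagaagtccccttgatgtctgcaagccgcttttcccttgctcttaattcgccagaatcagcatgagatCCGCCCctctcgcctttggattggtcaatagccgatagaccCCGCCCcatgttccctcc
Per kilobase, Sptlc1 made up 39.2% ± 0.118 of the Sptlc1 and Sptlc2 level in floxed and 37.5% ± 1.74 in LysMcre-labelled libraries without G-CSF (SD, n = 3). With G-CSF the share was 31.5% ± 1.09 in floxed and 27.6% ± 0.814 in LysMcre-labelled libraries (SD, n = 3).

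Cers2 (ENSMUSG00000015714.11, chromosome 3, 95314791 to 95323599, plus strand) encodes the ceramide synthase for very long acyl chains. It stood at 4465, 4576 and 4520 normalized counts in floxed and 4530, 4546 and 4498 in untreated LysMcre-labelled libraries. With G-CSF the values were 5009, 4909 and 4627 in floxed and 5847, 6008 and 6157 in LysMcre-labelled libraries. The LysMcre-labelled G-CSF libraries were the highest, and the floxed G-CSF libraries lay just above the untreated ones without overlap. In floxed libraries the difference with G-CSF was 0.10 and did not pass (95% interval 0.00 to 0.20, limma adjusted p = 0.0894). Without floxed G-CSF replicate 3 it was 0.13 and passed (adjusted p = 0.0338). Cers2 rose by 0.41 in LysMcre-labelled libraries (SE 0.05, limma adjusted p = 1.52e-06) and differed by 0.31 between genotypes with G-CSF (SE 0.05, limma adjusted p = 8.77e-05). The interaction was 0.31 (SE 0.07, limma adjusted p = 0.0031), and with equal totals it was 0.14 and no longer passed (adjusted p = 0.0782). Its first promoter window holds an E box at position -129 and Sp1 matches at -119 and -60. Its second promoter window holds a STAT palindrome at position -83 and a C/EBP match at -96.

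Ugcg and Cerk encode enzymes that draw on ceramide. Both changed with G-CSF in each genotype, and neither passed for the interaction. Ugcg (ENSMUSG00000028381.8, chromosome 4, 59189257 to 59222833, plus strand), glucosylceramide synthase, stood at 1813, 1855 and 1887 normalized counts in floxed libraries without G-CSF and 2918, 2683 and 2817 with it. LysMcre-labelled libraries held 1797, 1833 and 1808 without G-CSF and 2887, 2733 and 3001 with it. Both G-CSF groups were above both untreated groups and overlapped each other. Ugcg rose 1.51-fold in floxed (log2 0.60, SE 0.05, limma adjusted p = 1.09e-07) and 1.58-fold in LysMcre-labelled libraries (limma adjusted p = 1.7e-08, log2 0.66 with SE 0.05). The interaction was 0.06, with a 95% interval of -0.09 to 0.22 (limma adjusted p = 0.606).

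Cerk (ENSMUSG00000035891.16, chromosome 15, 86139128 to 86186141, minus strand), which makes ceramide 1-phosphate, went the other way. Floxed libraries held 2410, 2381 and 2591 normalized counts without G-CSF and 1578, 1712 and 1759 with it. LysMcre-labelled libraries held 2415, 2541 and 2526 without G-CSF and 1460, 1689 and 1739 with it. Both G-CSF groups were below both untreated groups and overlapped each other. Cerk fell by 0.55 on the log2 scale in floxed (SE 0.07, limma adjusted p = 6.81e-06) and by 0.62 in LysMcre-labelled libraries (SE 0.07, limma adjusted p = 1.08e-06). The interaction was -0.07, with a 95% interval of -0.28 to 0.14 (limma adjusted p = 0.686). Between genotypes with G-CSF, Ugcg differed by 0.03 (interval -0.08 to 0.14) and Cerk by -0.05 (-0.20 to 0.10), and neither passed.

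**Figure D2:**
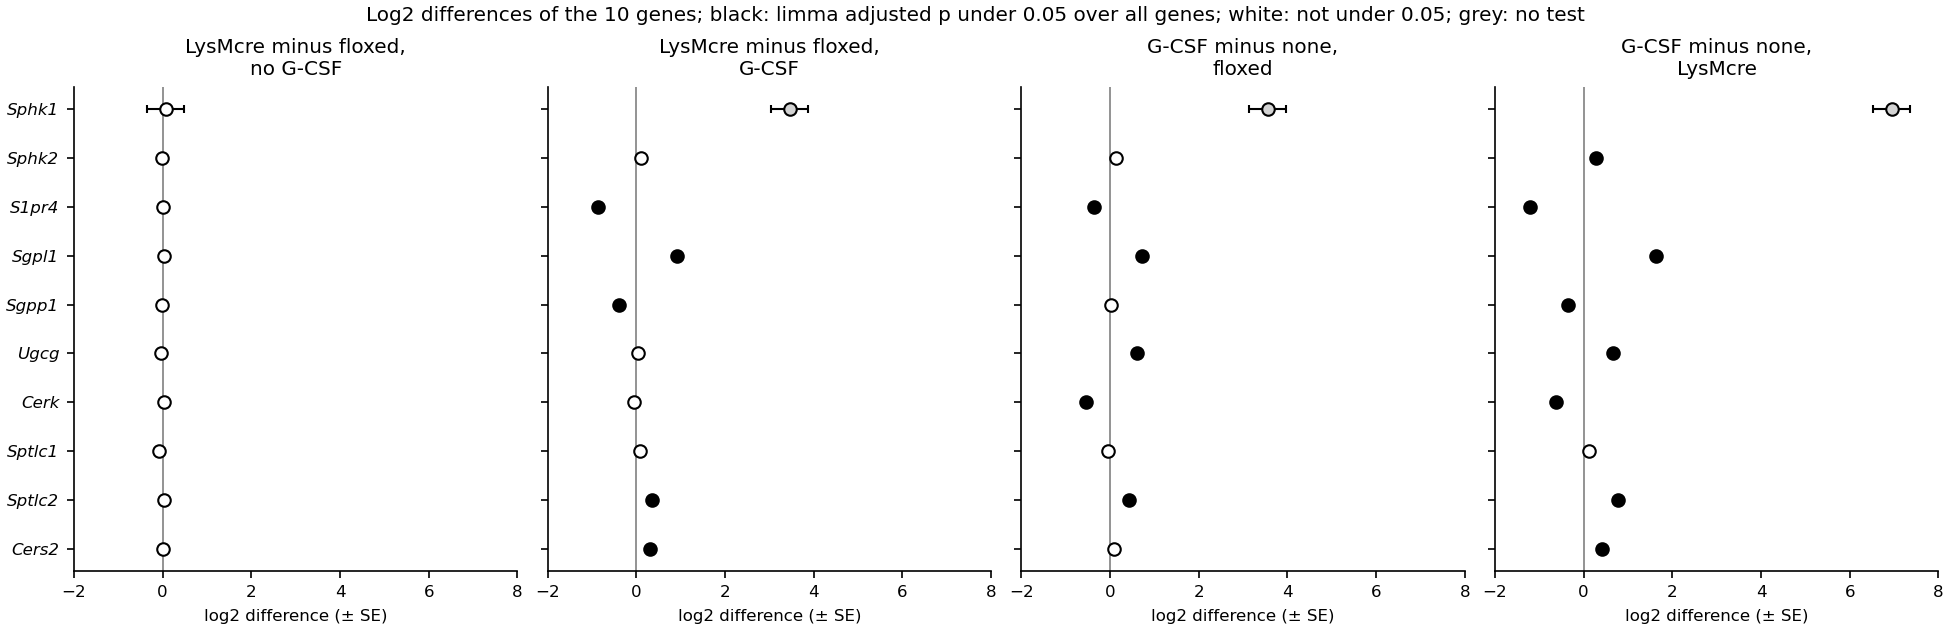
Log2 differences (horizontal axes, ± SE) of the 10 genes in the 4 comparisons between 2 groups, with 1 row per gene. Black points had a limma adjusted p under 0.05 over all genes, white points did not, and grey points (Sphk1 with G-CSF) carry no test; without G-CSF all points lie near 0.

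Counted over the list, Sphk1 included, 6 of the 10 genes passed between genotypes with G-CSF, where 36.0% of all genes passed. Of these 4 were higher (17.1% of all genes were) and 2 lower (18.9%). With G-CSF in floxed libraries 6 of the 10 passed (48.8% of all genes), 4 higher (24.1%) and 2 lower (24.6%). In LysMcre-labelled libraries 9 of the 10 passed (62.6% of all genes), 6 higher (31.1%) and 3 lower (31.6%). For the interaction 6 passed (22.4% of all genes), 4 higher (10.9%) and 2 lower (11.5%). The genes were chosen with these results known and Sphk1 is counted by its own selected values, so nothing is read from the counts. Without Sphk1 they were 5, 5, 8 and 5 of 9 in these 4 comparisons. The median log2 difference of the 10 genes was 0.10 between genotypes with G-CSF, 0.12 with G-CSF in floxed libraries, 0.34 in LysMcre-labelled libraries and 0.15 for the interaction, against -0.01, 0.00, 0.00 and -0.01 over all genes. With equal totals, 28.2% of all calls between genotypes with G-CSF were higher, against 47.5% in the main test, and the shares were 38.5% against 49.5% for G-CSF in floxed libraries, 31.2% against 49.6% in LysMcre-labelled libraries and 23% against 48.6% for the interaction. The comparisons with G-CSF share libraries, so they are not independent of each other.

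**Figure D3:**
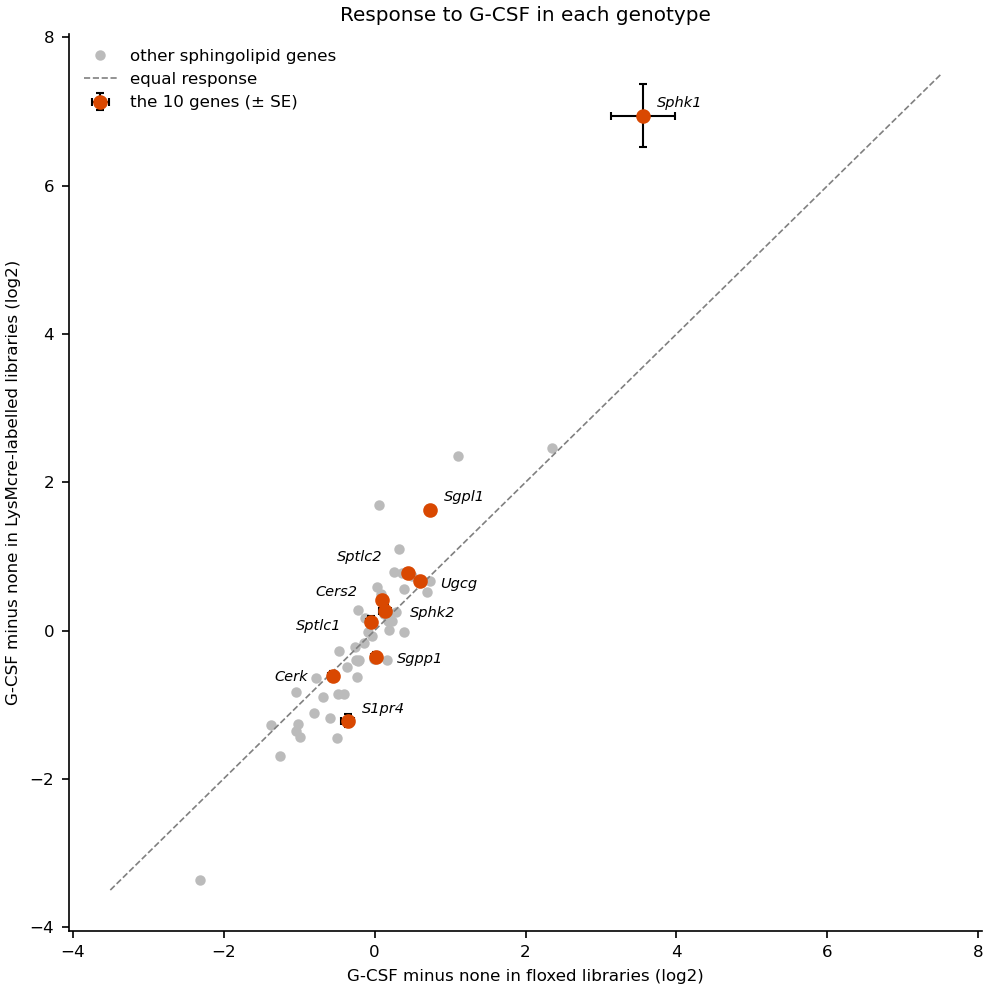
Response to G-CSF in floxed libraries (horizontal axis, log2) against that in LysMcre-labelled libraries (vertical axis, log2), for the 10 genes (orange, ± SE) and 48 other sphingolipid genes (grey), with a dashed line of equal response. Sphk1, Sgpl1 and S1pr4 lie away from the line, and Ugcg (0.60 and 0.66) and Cerk (-0.55 and -0.62) lie close to it.

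Levels can be compared between genes only per length, here as normalized counts per kilobase of merged GENCODE M21 exons. In floxed libraries without G-CSF, S1pr4 was the highest of the 10 genes (2090 ± 38.0 per kilobase, SD, n = 3), followed by Cers2 (1230 ± 15.2) and Sgpl1 (650.0 ± 10.6). Sphk2 (532 ± 19.0) and Cerk (511 ± 23.7) came next and did not differ beyond their spread. The same held for Ugcg (355 ± 7.13) and Sptlc2 (347 ± 5.53), and below them lay Sptlc1 (224 ± 2.66), Sgpp1 (142 ± 5.23) and Sphk1 (0.953 ± 0.635). The order was alike in LysMcre-labelled libraries without G-CSF, where Sptlc2 and Ugcg changed places within their spread. In LysMcre-labelled libraries with G-CSF, Sgpl1 was the highest (2050 ± 62.9), followed by Cers2 (1630 ± 42.2) and S1pr4 (899 ± 7.46). Sphk1 reached 129 ± 5.98 there, above Sgpp1 (110.0 ± 3.86), and was still below the other 8 genes.

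**Figure D4:**
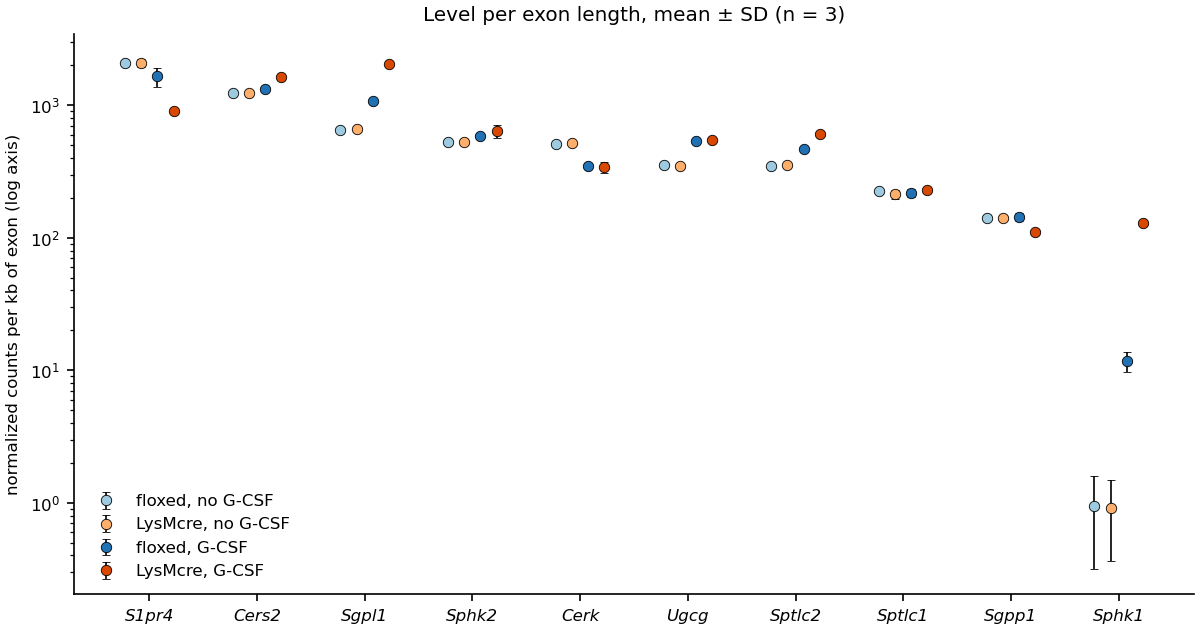
Normalized counts per kilobase of exon (vertical log axis) of the 10 genes in the 4 groups, as mean ± SD (n = 3), in the order of the floxed libraries without G-CSF. S1pr4 moved from 2090 to 899 and Sgpl1 from 662 to 2050 with G-CSF in LysMcre-labelled libraries (the LysMcre-labelled untreated means being 2090 and 662).

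Other genes of the pathway were read from a list of 61, of which 48 had a row and were tested. Between genotypes with G-CSF 7 were higher and 14 lower (43.8% passed, against 36.0% of all genes). With G-CSF 11 rose and 18 fell in floxed libraries (60.4% against 48.8%), and 16 rose and 22 fell in LysMcre-labelled libraries (79.2% against 62.6%). For the interaction 6 were positive and 8 negative (29.2% against 22.4%), and without G-CSF none passed in limma. There 2 of the 48 had an unadjusted limma p under 0.05, against 465 of all 13915 genes tested, and edgeR called 0 of the 48. Glb1, beta-galactosidase, was called lower there in DESeq2 and in 3 limma alternatives: with only the 2 groups compared (log2 -0.78, adjusted p = 0.0289), and without replicate 1 of the floxed or of the LysMcre-labelled G-CSF libraries (adjusted p = 0.0328 and 0.0249). The median log2 differences were -0.05, -0.10, -0.12 and -0.05 in these 4 comparisons with G-CSF, in the same order. With equal totals the counts were 6 and 19, 7 and 21, 10 and 27, and 5 and 15.

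Among the S1P receptors, S1pr1, which draws lymphocytes towards S1P, fell with G-CSF in both genotypes. It went from 418.9, 424.9 and 568.4 normalized counts to 153.8, 191.7 and 197.7 in floxed libraries (log2 -1.37, limma adjusted p = 1.34e-07). In LysMcre-labelled libraries it went from 458.7, 476.4 and 493.4 to 192.2, 194.6 and 202.3 (log2 -1.27, limma adjusted p = 1.64e-07). The G-CSF groups of the genotypes overlapped, unlike those of S1pr4. S1pr2 stood between 314.6 and 364.2 in all 12 libraries and passed in no comparison. S1pr3 stood between 7.74 and 29.5, and its rise in LysMcre-labelled libraries (log2 0.79, limma adjusted p = 0.0482) was lost in 12 of 21 alternatives. The S1P exporter Spns2 fell by 1.02 on the log2 scale in floxed libraries (limma adjusted p = 0.00136) and by 1.26 in LysMcre-labelled libraries (0.000139), to between 42.9 and 94.2 normalized counts. Mfsd2b, the exporter of red cells and platelets, stood between 64.9 and 154.9, and the lipid phosphatases Plpp2 and Plpp3 between 7.00 and 37.7; none of them passed. Aldh3a2, the aldehyde dehydrogenase that follows Sgpl1 in S1P breakdown, fell while Sgpl1 rose. Its libraries held 3763, 3812 and 3994 (floxed) and 3599, 3700 and 3807 (LysMcre-labelled) without G-CSF, and 2804, 2841 and 3059 and 1997, 2081 and 2084 with it. Aldh3a2 fell by 0.41 in floxed and by 0.85 in LysMcre-labelled libraries (limma adjusted p = 6.27e-06 and 7.79e-10), with an interaction of -0.44 (limma adjusted p = 0.000387).

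Genes around the ceramide-making steps moved both ways. The ceramide synthase Cers6 rose with G-CSF by a log2 difference of 0.69 in floxed libraries (limma adjusted p = 1.82e-06). In LysMcre-labelled libraries it rose by 0.52 (limma adjusted p = 2.47e-05), a call lost with quantile normalization (0.18, limma adjusted p = 0.096). Between genotypes with G-CSF, Cers5 differed by -0.58 (limma adjusted p = 7.79e-06), opposite to Cers2. Cers6 differed there by -0.265 (limma adjusted p = 0.0129), opposite to Cers2 as well. This call was lost without LysMcre-labelled G-CSF replicate 3 (-0.20, limma adjusted p = 0.0672). The ketoreductase Kdsr, which follows serine palmitoyltransferase, fell in floxed libraries from 227.2 to 109.7 (log2 -1.04, limma adjusted p = 3.74e-07). In LysMcre-labelled libraries it fell from 213.3 to 119.9 (log2 -0.83, limma adjusted p = 2.78e-06). Ormdl2, one of the inhibitors of serine palmitoyltransferase, was higher in LysMcre-labelled libraries with G-CSF (297.1 against 173.7, log2 0.77, limma adjusted p = 2.86e-05), where Sptlc2 was higher too. The desaturase Degs2 (68.4 against 47.2, log2 0.52, limma adjusted p = 0.0483) lost its call in 11 of 22 alternatives. Smpdl3a, a phosphodiesterase related to acid sphingomyelinase, rose with G-CSF in floxed libraries (log2 0.74, limma adjusted p = 3.33e-07). It rose in LysMcre-labelled libraries as well (log2 0.67, limma adjusted p = 5.98e-07).

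Beyond Ugcg, 4 genes of glycosphingolipid synthesis were measured, and 3 of them changed with G-CSF in both genotypes. Of all genes 48.8% passed with G-CSF in floxed and 62.6% in LysMcre-labelled libraries. How many of all genes passed in both was not counted, so nothing is read from the 3 of 4. B4galt5 and B4galt6 encode the lactosylceramide synthases that use the product of Ugcg, and St3gal5 the GM3 synthase that follows. B4galt6 went from a mean of 707.3 to 3610 in floxed (log2 2.35, limma adjusted p = 1.61e-13) and from 706.4 to 3902 in LysMcre-labelled libraries (log2 2.46, limma adjusted p = 3.53e-14). B4galt5 reached 2781, 2842 and 3005 with G-CSF in floxed and 5920, 6665 and 7000 in LysMcre-labelled libraries, from 1248 to 1355 without it. Its G-CSF groups did not overlap, and its interaction was 1.24 (SE 0.09, limma adjusted p = 1.58e-07). St3gal5 fell from 7090, 7825 and 8146 to 1412, 1446 and 1806 in floxed libraries and from 6488, 6999 and 8089 to 620.4, 654.2 and 818.1 in LysMcre-labelled libraries. Each G-CSF group of St3gal5 was below both untreated groups, the LysMcre-labelled one lowest, and its interaction was -1.06 (SE 0.16, limma adjusted p = 0.0002). The fourth, B4galnt1, differed by -0.12 with G-CSF in floxed (limma adjusted p = 0.0667) and rose by 0.16 in LysMcre-labelled libraries (limma adjusted p = 0.0119), where it was at -0.10 with equal totals. Ugcg and B4galt6 thus had overlapping G-CSF groups of the genotypes, while B4galt5 and St3gal5 had separate ones.

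**Figure D5:**
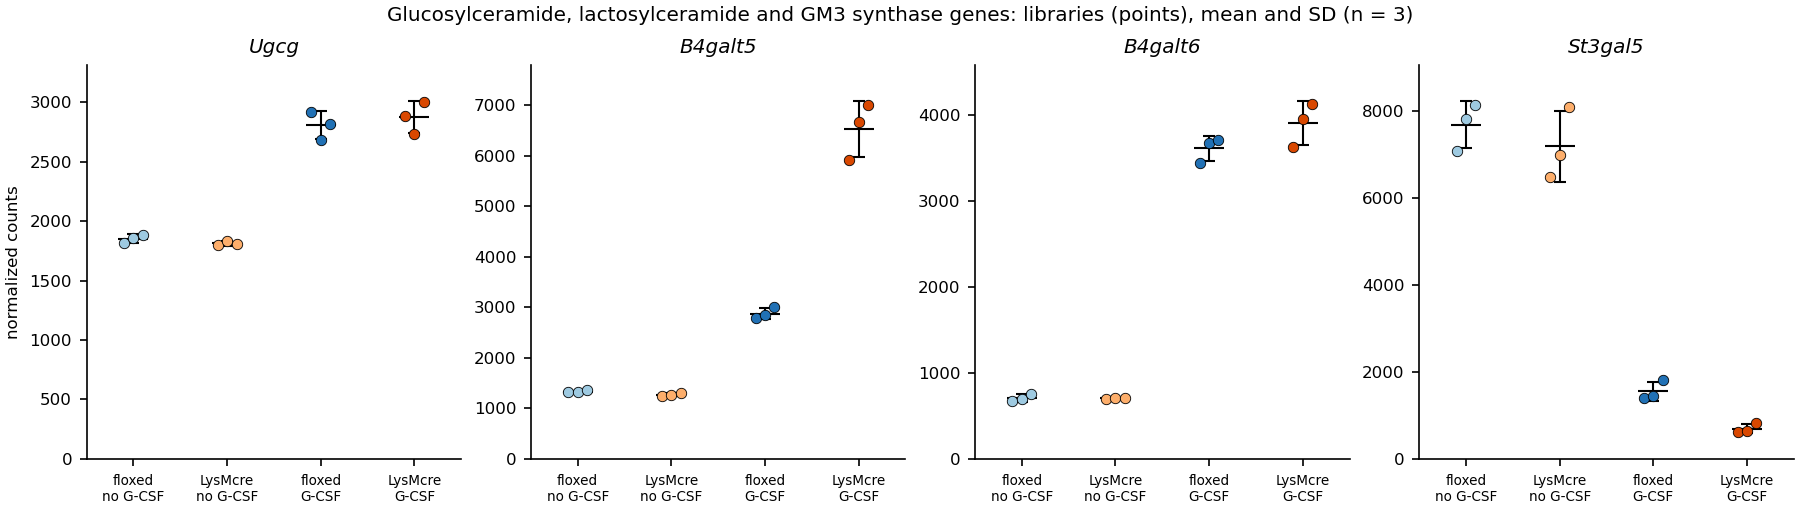
Normalized counts (vertical axes, from 0) of Ugcg, B4galt5, B4galt6 and St3gal5 in the 4 groups, with points for libraries and bars for mean ± SD (n = 3). Ugcg, B4galt5 and B4galt6 were higher with G-CSF in both genotypes and St3gal5 lower, down to 620.4 to 818.1 in LysMcre-labelled libraries.

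Of 11 measured genes that break glycosphingolipids down, 1 rose and 6 fell with G-CSF in floxed libraries, and 2 rose and 7 fell in LysMcre-labelled libraries. Of all genes 24.1% rose and 24.6% fell in the former, and 31.1% rose and 31.6% fell in the latter. Gla, lysosomal alpha-galactosidase, stood at 705.3, 733.9 and 858.9 normalized counts in LysMcre-labelled libraries with G-CSF and between 191.7 and 261.7 in the other 9. Its difference between genotypes with G-CSF was 1.76 (limma adjusted p = 2.07e-08) and its interaction 1.64 (limma adjusted p = 4.49e-06). Galc, galactosylceramidase, was lower between genotypes with G-CSF (492.4 against 1004, log2 -1.03, limma adjusted p = 3.54e-08). Glb1 was also lower (129.2 against 248.9, log2 -0.94, limma adjusted p = 0.000137), and it differed by -0.78 without G-CSF (limma adjusted p = 0.0877). Hexa, a subunit of beta-hexosaminidase, fell from 6284 to 2637 in floxed and from 6075 to 1882 in LysMcre-labelled libraries (log2 -1.25 and -1.69, limma adjusted p = 3e-11 and 3.48e-13). Gba2, the glucosylceramidase outside lysosomes, fell in LysMcre-labelled libraries from 1689 to 628.2 (log2 -1.43, limma adjusted p = 1.04e-09). It fell in floxed libraries too, from a mean of 1757 to 885.7.

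The genes whose pattern was most like that of Sphk1 were sought by Pearson's r over the 12 libraries on log2(value + 1), among 9759 genes with a mean of at least 50. They were Phf23 (r = 0.99), Hdlbp (0.99), Rbms2 (0.99), Sertad2 (0.99) and Dhx8 (0.99). The 12 points fall in the same 4 groups for every gene, so r mostly describes the order of the groups. Phf23 stood at 1272, 1264, 1963 and 2822 normalized counts and Sertad2 at 318.2, 318.0, 587.5 and 1077 in group means, in the order floxed and LysMcre-labelled without G-CSF, then floxed and LysMcre-labelled with it. In all 5 the LysMcre-labelled G-CSF mean was the highest and the floxed G-CSF mean the next, which is the pattern they were picked for, and their changes were far smaller than those of Sphk1.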

How the data were processed

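RNA of 12 neutrophil libraries was sequenced. The authors deposited 1 table of 13935 genes in a signal unit, gene counts divided by a size factor per library, here called normalized counts. This was read from the deposited values: 100.0% were whole reads at a tolerance of 0.01 read, and the steps matched median-of-ratios size factors to 4.28e-11. The lowest row total was 121 reads. Per the submitters' processing notes the genome was mm10. Which aligner, read counter, gene models and strandedness were used is not given in the sources used here. Spreadsheet-style empty columns (2) were not used.

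Rows with a mean under 10 were left out (20 rows) and log2(value + 1) was fitted over all 4 groups in limma 3.58.1 (R 4.3.3) with a trended prior and 8 residual degrees of freedom, giving 5 contrasts. The expected normalized values turned out to be recoverable reads, so edgeR 4.0.16 and DESeq2 1.42.0 on the recovered reads served as alternatives and limma stayed the main test. Other alternatives were pseudocounts of 0.5 and 5, no filter, a mean of at least 50, equal totals, quantile normalization, only the 2 groups compared, a replicate block and leaving out each library. The fit was tested on simulated data. Replicates differed beyond sampling noise (chi-square per row 3.47 to 12.3), so all 12 libraries counted.

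LysMcre-labelled libraries with G-CSF also carry the word for no treatment in their titles and were grouped by descriptions and characteristics. The members and all gene, marker and motif lists were chosen with earlier results of these data known. Named genes were the 10 members, the 4 largest rises and falls of the wider list per contrast among called genes with a mean of at least 50, its S1P receptors, exporters and phosphatases, and the 5 genes most like Sphk1, predicted genes left out; Aldh3a2 and the single-gene interactions of the wider list were added after their values were seen. Positions and exon lengths come from GENCODE M21, promoter windows from RefSeq (GRCm38.p6). Per-kilobase levels assume that reads were counted over all annotated exons.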

Additional observations from a re-analysis of the deposited data

Results flagged for a closer look

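The response to G-CSF differed between the genotypes for 5 of the 9 genes other than Sphk1, by limma's interaction term over all genes (22.4% of all genes passed). The interaction, as log2 response in LysMcre-labelled minus that in floxed libraries, was 0.90 for Sgpl1, 0.33 for Sptlc2 and 0.31 for Cers2. It was -0.86 for S1pr4 and -0.37 for Sgpp1. For Sphk1 it was 3.39, given as a description because the gene was taken up with its difference known and has 14 or 15 reads in each untreated group. No group was large enough for a check of single outlying libraries.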

How the results depend on the processing

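Of 23 results past the threshold in the main test for the 9 genes other than Sphk1, none changed direction in 501 alternatives, and 3 lost their call, all with equal totals: Sphk2 with G-CSF in LysMcre-labelled libraries (0.01) and the interactions of Sptlc2 (0.16) and Cers2 (0.14). The replicate block changed no call of the members (50 of 50 alike, 6 of the 10 called between genotypes with G-CSF, Sphk1 counted). Deviations from the group mean were compared between same-numbered libraries of different groups. Over 18 pairs r was -0.18 to 0.32, 4 of them over 0.1, and the own number was the best match in 13 of 36 cases. Between untreated and G-CSF libraries of the same genotype, r was 0.32, 0.20 and 0.06 for floxed libraries in the order of their numbers. For LysMcre-labelled libraries it was 0.21, -0.03 and 0.03. Whether libraries of the same number belong together is thus not settled, and the main test treats them as unpaired. The numbers themselves are in doubt for 1 library, since LysMcre-labelled untreated replicate 2 by title has the number 3 in its description. With equal totals 8 genes of the 10 passed for G-CSF in LysMcre-labelled libraries and 4 for the interaction, Sphk1 counted in both. Leaving out a library gave a call to Sphk2 between genotypes with G-CSF (0.20, without LysMcre-labelled G-CSF replicate 1), to Cers2 with G-CSF in floxed libraries (0.13) and to Sptlc1 with G-CSF in LysMcre-labelled libraries (0.18, without LysMcre-labelled untreated replicate 3).

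Results that passed no threshold changed sign 41 times, and the cause was not tested. Between genotypes without G-CSF, the log2 difference became 0.033 (Sphk2), 0.0494 (S1pr4), 0.0327 (Sgpp1) and 0.0193 (Ugcg) with equal totals, and -0.141 (Sphk1), 0.0066 (Sphk2), 0.0335 (S1pr4) and 0.0029 (Sgpp1) with quantile normalization. Sphk1 was at -0.003 with a pseudocount of 5, -0.101 in edgeR and -0.1071 in DESeq2, and S1pr4 at 0.0048 and 0.0016 in these 2 tools. Between genotypes with G-CSF, equal totals gave -0.0059 (Sphk2), -0.0849 (Ugcg) and -0.0301 (Sptlc1), and quantile normalization -0.0101 (Ugcg). Sgpp1 with G-CSF in floxed libraries was at -0.0775 with equal totals and -3e-04 in edgeR, and Sptlc1 in LysMcre-labelled libraries at -0.1432 with equal totals. The interactions were -0.0389 (Sphk2), -0.1041 (Ugcg) and -0.0035 (Sptlc1) with equal totals and -0.0089 (Ugcg) with quantile normalization. Leaving out 1 library at a time gave, without G-CSF, -0.542 to 0.3965 for Sphk1, -0.0432 to 0.0291 for Sphk2, -0.0504 to 0.041 for S1pr4, -0.0456 to 0.0074 for Sgpp1, -0.0031 to 0.0579 for Cerk and -0.0074 to 0.0104 for Cers2. It gave -0.0985 to 0.0278 for Cerk between genotypes with G-CSF, -0.1187 to 0.0076 for its interaction, and -0.029 to 0.0685 (Sgpp1) and -0.0834 to 0.0138 (Sptlc1) with G-CSF in floxed libraries.

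In the wider list, 80 of 102 called results kept their call in every alternative that could be fitted, and 4 turned with equal totals for G-CSF in LysMcre-labelled libraries: Asah1 (-0.1337, adjusted p = 0.0293), Acer3 (-0.005), Gltp (-0.0502) and B4galnt1 (-0.0979). Over all genes, 16 passed between genotypes without G-CSF, against 28 in DESeq2, 9 without floxed untreated replicate 1 and 10 without LysMcre-labelled untreated replicate 1. Depth limits Sphk1 without G-CSF, where single libraries held 1 to 8 reads.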
